A study of Homo sapiens with 5 samples.

Results

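The promoters described here belong to transcripts with names of long intergenic noncoding RNAs (LINC) or of antisense RNAs, which are named after another gene. They were taken from the deposited list of transcription start sites (TSSs) by name: a name that starts with LINC and a digit, or that ends in -AS and a digit, with a window in all 3 libraries around TSSs. The rule found 649 of the 9787 analysed TSSs, 479 LINC and 170 antisense, in 644 genes. GENCODE 44 lists 608 of them as long noncoding RNA, 8 as protein-coding and 10 as transcribed pseudogenes, and 23 were not matched to it. ChIP-seq for RPB1, the catalytic subunit of RNA polymerase II (RNAPII), had been done in RPE1, an hTERT-immortalised human line from retinal pigment epithelium. CFAP20-KO cells lacked CFAP20, CFAP20/CCNC-dKO cells lacked CFAP20 and CCNC, the gene for cyclin C of the Mediator kinase module, and WT cells lacked neither. The labels give every group the same background, RPE1 iCas9 p53/puro-dKO. Cells of all groups were untreated and fixed with DSG followed by formaldehyde, and fly chromatin was the spike-in. The labels give 22 µg of chromatin with 32.6 ng of spike-in for CFAP20/CCNC-dKO, and 28 µg with 40 ng for CFAP20-KO and WT. Each genotype had 1 library around TSSs, so no difference between genotypes could be tested or checked in a replicate, and WT had 3 libraries around replication origins, replicate 1 being its TSS library too. The labels do not say whether a knockout is a single clone.

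Long noncoding RNAs are transcribed by RNAPII, capped and often spliced, but many are short-lived and remain in the nucleus. Antisense RNAs arise in several ways. Some start head to head with a coding gene, from the other strand of the same CpG-rich promoter, and others start inside the gene and run against it. CpG islands are the stretches where most broadly active promoters lie, and they hold open chromatin and RNAPII paused just after the start. ChIP has no strand, so RNAPII from a head-to-head partner is counted at both starts.

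The signal is a spike-in normalized density, and promoter density means its average from -200 to 500 bp around the TSS. The smallest steps of the signal and an estimated fragment length gave the depth: the promoters of the 649 members held 4142 equivalent fragments in CFAP20-KO, 5764 in CFAP20/CCNC-dKO and 35555 in WT. The length, taken from isolated runs of the smallest step, was 300 bp in CFAP20-KO (2807 runs), 320 bp in CFAP20/CCNC-dKO (1283) and 140 bp in WT (217). Fragment numbers and the counting intervals below depend on it, and whether the WT length is too short was not tested. A promoter at a density of 0.41 rests on 5.31 fragments in CFAP20-KO, 8.16 in CFAP20/CCNC-dKO and 46.2 in WT. The labels name a different RPB1 antibody for WT than for both knockouts, and the number given for WT is also that of the spike-in antibody, so in ratios to WT the genotype and the antibody cannot be told apart. Of 8 pigment epithelium markers, 4 were in the list, and OTX2 had a promoter density of 1.81 in CFAP20-KO, 1.01 in CFAP20/CCNC-dKO and 1.68 in WT while RPE65 had 0.108, 0.484 and 0.418 in the same order, beside flank densities of 0.354, 0.277 and 0.360. STMN2, a marker of neurons, had a promoter density of 0.263 in CFAP20-KO, 0.417 in CFAP20/CCNC-dKO and 0.318 in WT, beside flank densities of 0.313, 0.350 and 0.341. The 5 listed genes of nuclear RNA turnover and early termination, INTS1, INTS4, INTS10, VWA9 and EXOSC2, out of a list of 44, all passed the density filter used below, with median promoter densities of 1.53 in CFAP20-KO, 1.00 in CFAP20/CCNC-dKO and 1.92 in WT. Of all protein-coding TSSs outside the members, 62.9% passed that filter.

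The promoter sequences of 7 members are printed to show how different these promoters are in base composition, since the densities below split along it. They are LINC01273 and the 3 LINC and 3 antisense members of highest mean density, chosen after their values were seen. The RefSeq start had to lie within 300 bp of the listed TSS, as it did for 354 of 649 members. Among members above the density filter used below, LINC01273 had the lowest log2 ratio of CFAP20/CCNC-dKO to both other libraries. For this ranking a small constant was added to both densities. Each runs 5′ to 3′ from 250 bases before to 50 bases after the RefSeq start, in build GRCh38.p14. Capitals mark short motifs found on either strand. They are the TATA box, spelled TATAAA, the CCAAT box, spelled as its name, the GC box, searched as GGGCGG, and the ETS core, which was taken as CCGGAA. The palindromic NRF1 core was also searched, and none of the 7 windows holds it. Where LINC01273 has neighbouring GC boxes, the capitals run together.
LINC00941: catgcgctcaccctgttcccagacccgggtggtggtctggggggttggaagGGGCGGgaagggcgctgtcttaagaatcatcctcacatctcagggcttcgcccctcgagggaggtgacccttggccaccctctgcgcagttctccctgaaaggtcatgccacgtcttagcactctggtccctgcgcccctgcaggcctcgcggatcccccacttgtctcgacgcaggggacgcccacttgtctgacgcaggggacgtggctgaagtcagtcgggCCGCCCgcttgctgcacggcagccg
LINC00657: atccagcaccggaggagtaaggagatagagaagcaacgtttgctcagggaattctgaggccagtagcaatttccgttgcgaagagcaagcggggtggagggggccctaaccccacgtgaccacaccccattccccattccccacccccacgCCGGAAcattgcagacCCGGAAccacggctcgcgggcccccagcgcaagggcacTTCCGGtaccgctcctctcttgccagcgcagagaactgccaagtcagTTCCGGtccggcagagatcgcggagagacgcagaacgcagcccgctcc
LINC00936: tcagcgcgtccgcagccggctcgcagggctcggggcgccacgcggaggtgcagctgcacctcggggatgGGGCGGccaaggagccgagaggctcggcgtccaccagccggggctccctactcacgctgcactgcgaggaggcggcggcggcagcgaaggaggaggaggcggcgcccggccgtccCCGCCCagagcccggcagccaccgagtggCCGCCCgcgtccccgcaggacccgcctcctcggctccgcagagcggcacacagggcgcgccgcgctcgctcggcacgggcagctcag
DLG1-AS1: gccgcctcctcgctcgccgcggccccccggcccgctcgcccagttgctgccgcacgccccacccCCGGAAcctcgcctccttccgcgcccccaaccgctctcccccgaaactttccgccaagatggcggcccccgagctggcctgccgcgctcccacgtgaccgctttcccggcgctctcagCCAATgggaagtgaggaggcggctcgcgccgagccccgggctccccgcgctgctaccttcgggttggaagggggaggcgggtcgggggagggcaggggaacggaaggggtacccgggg
DLGAP1-AS2: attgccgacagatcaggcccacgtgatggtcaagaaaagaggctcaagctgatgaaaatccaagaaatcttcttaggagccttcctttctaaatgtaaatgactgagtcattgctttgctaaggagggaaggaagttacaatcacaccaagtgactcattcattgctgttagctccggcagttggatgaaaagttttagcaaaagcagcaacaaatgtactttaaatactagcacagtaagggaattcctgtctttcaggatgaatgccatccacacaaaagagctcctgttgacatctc
CELSR3-AS1: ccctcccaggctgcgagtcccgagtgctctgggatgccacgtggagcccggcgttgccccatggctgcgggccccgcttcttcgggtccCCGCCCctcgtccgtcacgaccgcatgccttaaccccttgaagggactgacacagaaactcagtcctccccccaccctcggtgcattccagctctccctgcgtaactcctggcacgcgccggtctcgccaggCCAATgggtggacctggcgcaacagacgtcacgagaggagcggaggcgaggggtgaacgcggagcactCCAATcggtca
LINC01273: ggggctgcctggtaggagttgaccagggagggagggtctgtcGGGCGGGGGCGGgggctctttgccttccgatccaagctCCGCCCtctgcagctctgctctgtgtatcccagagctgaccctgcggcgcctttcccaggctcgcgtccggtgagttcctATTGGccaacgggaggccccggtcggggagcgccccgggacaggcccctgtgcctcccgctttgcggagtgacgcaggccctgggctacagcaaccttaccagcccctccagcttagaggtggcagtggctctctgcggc

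These windows are chr12:30795431-30795730 (plus strand) for LINC00941, chr20:36050911-36051210 (minus) for LINC00657, now called NORAD, chr12:89708705-89709004 (plus) for LINC00936, now ATP2B1-AS1, chr3:197297997-197298296 (plus) for DLG1-AS1, chr18:3603487-3603786 (plus) for DLGAP1-AS2, chr3:48663518-48663817 (plus) for CELSR3-AS1, now LINC02585, and chr20:50172320-50172619 (plus) for LINC01273. The ATP2B1-AS1 window holds 43 CpG dinucleotides, the NORAD window 23 and the DLGAP1-AS2 window 3. NORAD carries 4 ETS cores and DLGAP1-AS2 none of these motifs. Over the 354 members with a RefSeq window near their TSS, 18.4% held a GC box and 9.32% an ETS core, against 45.0% and 17.2% of all 35116 RefSeq promoters. A TATAAA was in 14.7% of these members, against 11.5% of all promoters, and a CCAAT in 35.3%, against 34.6%. The NRF1 core was in none of the 354 members and in 1.24% of all promoters. Among the 24 of the 354 that stood at least 2-fold over their flank in all 3 libraries, a group described below, the shares were different. A GC box was in 50%, an ETS core in 29.2%, a CCAAT in 29.2% and a TATAAA in 8.33% of these 24. A match is a run of letters and was not tested as a binding site.

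Most of these promoters held RNAPII near the level of their surroundings. In WT the median flank density of members was 0.349. The median member promoter density was 0.310 in CFAP20-KO, 0.344 in CFAP20/CCNC-dKO and 0.350 in WT, and the median of the other 9138 TSSs was 0.462, 0.434 and 0.415 in the same libraries. In WT, 53 members (8.17%) reached 2-fold over their own flank (2000 to 4500 bp away on both sides), where 30.0% of all analysed TSSs did. The share was 15.3% for antisense members and 5.64% for LINC members. In CFAP20-KO 107 members (16.5%) reached it, where 34.6% of all TSSs did, and in CFAP20/CCNC-dKO 75 (11.6%), where 27.2% did. These 2 libraries are shallower. A count of 0 fragments in the promoter occurred for 36 members in CFAP20-KO (5.55%, against 4.40% of other TSSs). It occurred for 8 in CFAP20/CCNC-dKO (1.23%, against 1.84%) and 4 in WT (0.616%, against 0.602%).

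In all 3 libraries, 34 members stood at least 2-fold over their flank (5.24%, against 19.8% of all TSSs), 16 LINC and 18 antisense. Each of the 34 had nascent RNA by BrU-seq, which labels new transcripts with bromouridine. So did 1899 of the 1907 other TSSs that met the same limit in all 3 libraries. By CpG content 24 of the 34 (70.6%) were CpG-rich, meaning an observed to expected CpG ratio of at least 0.6 within 250 bp of the TSS. Of all members 14.8% were CpG-rich, and of the 1907 other TSSs 92.8%. A head-to-head coding gene was annotated for 13 of the 34 (38.2%), against 9.02% of the 1907.

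**Figure D1:**
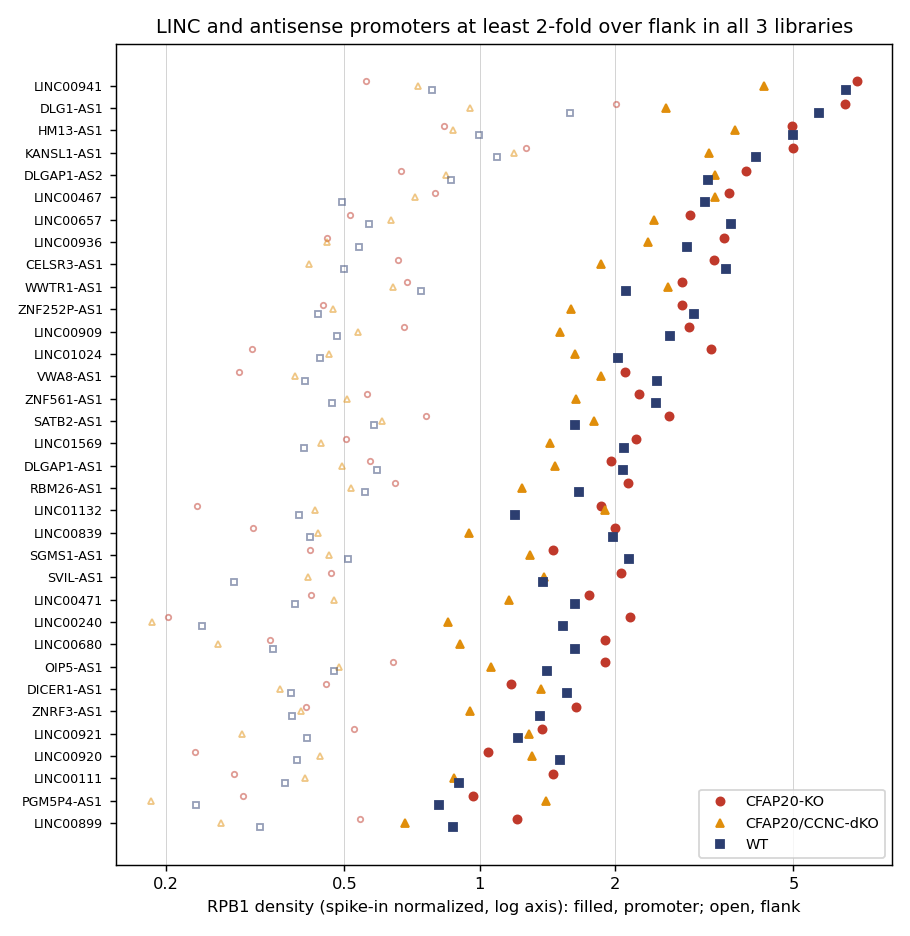
RPB1 density (log axis) of the 34 LINC and antisense promoters that stood at least 2-fold over their flank in all 3 libraries, ordered by mean promoter density. Filled symbols are promoters and open symbols the flanks of the same genes; LINC00941 and DLG1-AS1 lead, and the CFAP20/CCNC-dKO symbol lies left of the CFAP20-KO symbol for 30 of the 34.

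LINC00941 had the highest density, with 6.93 in CFAP20-KO, 4.29 in CFAP20/CCNC-dKO and 6.55 in WT. Its listed TSS lies 250 bp after the RefSeq start and 40764 bp from the GENCODE start. DLG1-AS1, which starts 137 bp from the scaffold protein gene DLG1 and runs away from it, had 6.51 in CFAP20-KO, 2.60 in CFAP20/CCNC-dKO and 5.70 in WT. Its CFAP20/CCNC-dKO value was low beside the other two. HM13-AS1, inside the signal peptide peptidase gene HM13, had 4.96, 3.70 and 4.99 in the same order of libraries. KANSL1-AS1, head to head with a subunit gene of the NSL acetyltransferase complex, had 5.00 in CFAP20-KO, 3.24 in CFAP20/CCNC-dKO and 4.13 in WT. DLGAP1-AS2, CpG-poor and inside the gene of a synaptic scaffold protein, had 3.93, 3.35 and 3.22 in that order. CELSR3-AS1, 890 bp from a planar polarity cadherin gene, had 3.32 in CFAP20-KO, 1.86 in CFAP20/CCNC-dKO and 3.54 in WT. These leading starts were both head to head with and inside other genes.

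LINC00467, a transcript reported to encode a mitochondrial peptide, had 3.60 in CFAP20-KO, 3.34 in CFAP20/CCNC-dKO and 3.18 in WT. NORAD, which sequesters Pumilio proteins in the cytoplasm, had 2.95 in CFAP20-KO, 2.44 in CFAP20/CCNC-dKO and 3.63 in WT, with a BrU value of 52.9. ATP2B1-AS1, head to head with a calcium pump gene, had 3.50, 2.37 and 2.89 in that order. OIP5-AS1, known as cyrano and as the RNA that directs decay of the microRNA miR-7, had 1.90 in CFAP20-KO, 1.06 in CFAP20/CCNC-dKO and 1.41 in WT. LOXL1-AS1, which lies near the gene of an elastic fibre crosslinking enzyme, had 0.570, 0.626 and 0.611, below its own flank of 0.936, 0.711 and 1.10 in the same libraries. LINC01133 had 0.310 in CFAP20-KO, 0.646 in CFAP20/CCNC-dKO and 0.474 in WT. Of 39 noncoding RNAs with a described role, 7 were among the members: LINC00941, LINC00467, NORAD, OIP5-AS1, LOXL1-AS1, LINC01133 and NBDY, whose values are given below.

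Members lay below other TSSs where nascent transcription was high. BrU values of the gene body in WT, a deposited score whose scale is not given in the sources used here, were positive for 317 members, and these were divided at 0.0212, 0.109 and 0.850 into 4 classes. In the 332 members without BrU the median WT density was 0.056 (log2) above that of other TSSs without BrU, and in classes 1 and 2 it differed by 0.03 and 0.01. In class 3 it was 0.429 for 79 members and 0.611 for 1660 other TSSs, a log2 difference of -0.47. In class 4 it was 0.780 for 79 members and 1.52 for 2678 other TSSs, a log2 difference of -0.93. Over all members the median of these differences was -0.05, and 332 of the 649 members had no BrU. Other lncRNA TSSs of class 4, 280 in number, had 0.610 and protein-coding ones 1.63.

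CpG content split class 4. Its 27 CpG-rich members had a median WT density of 1.63 (quartiles 1.06 and 2.77), against 1.74 (1.28 and 2.35) for 2056 CpG-rich other TSSs. Its 52 CpG-poor members had 0.610 (0.457 and 0.850), against 0.636 (0.422 and 1.06) for 622 CpG-poor other TSSs. Within each CpG class the log2 differences were -0.09 and -0.06; with 1 WT library their spread between replicates is unknown. CpG-rich starts made up 34.2% of class 4 members and 76.8% of the other TSSs of that class. In class 3 the 15 CpG-rich members still lay lower, at 0.683 against 1.15 for 838 other TSSs, while the 64 CpG-poor members lay at 0.420 against 0.404 for 822 others. The part of CpG content in the difference was not tested further.

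**Figure D2:**
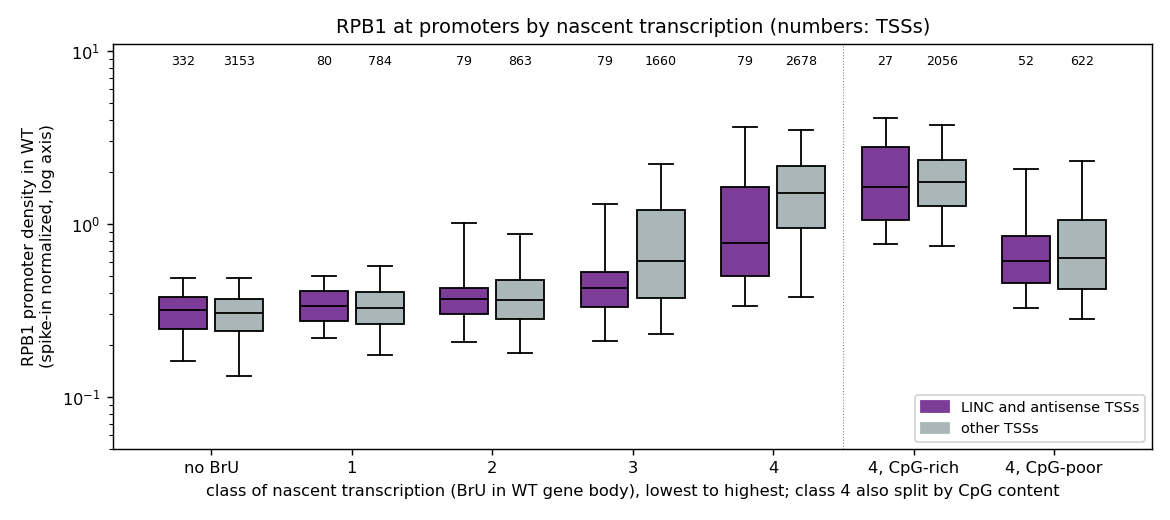
RPB1 promoter density in the WT library (log axis) for LINC and antisense TSSs and for other TSSs, by class of nascent transcription, with class 4 repeated by CpG content on the right. Boxes are quartiles with the median, whiskers the 5th and 95th percentiles, and numbers the TSSs; in class 4 the medians are 0.780 and 1.52, and among CpG-rich starts 1.63 and 1.74.

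The shape of the signal differed in the same place. Gene body density (2000 to 5000 bp) of class 4 was 0.476 in members and 0.480 in other TSSs, and the log2 promoter to body ratio of 59 class 4 members of at least 5000 bp differed by -1.16 from that of other TSSs; within CpG-rich starts the difference was 0.16 and within CpG-poor starts -0.18. The ratio of upstream (-700 to -200 bp) to downstream (0 to 500 bp) density was 0.64 (log2) higher in class 4 members than in other TSSs. By CpG class that difference was 0.36 for rich and 0.19 for poor starts. The highest 200-bp stretch within 2000 bp lay inside the promoter window for 29 of 65 class 4 members above the density filter (44.6%), against 74.8% of the other TSSs and 34.1% of other lncRNA TSSs. TMCC1-AS1, head to head with an endoplasmic reticulum membrane protein gene, had a log2 upstream to downstream ratio of 2.21 in WT. USP12-AS2, 448 bp from the deubiquitinase gene USP12, had a WT density of 3.04 upstream and 0.834 downstream. NORAD showed the opposite order, 0.531 upstream and 4.27 downstream. The log2 ratio was also low at LINC00708 (-2.87), LINC00680 (-2.40) and LINC00839 (-2.11) and high at LINC00629 (2.14), LINC01389 (1.76) and LINC01348 (1.39). The WT promoter density was only 0.3105 at LINC00708, 0.310 at LINC00629, 0.121 at LINC01389 and 0.317 at LINC01348. These starts passed the density filter only through knockout values.

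**Figure D3:**
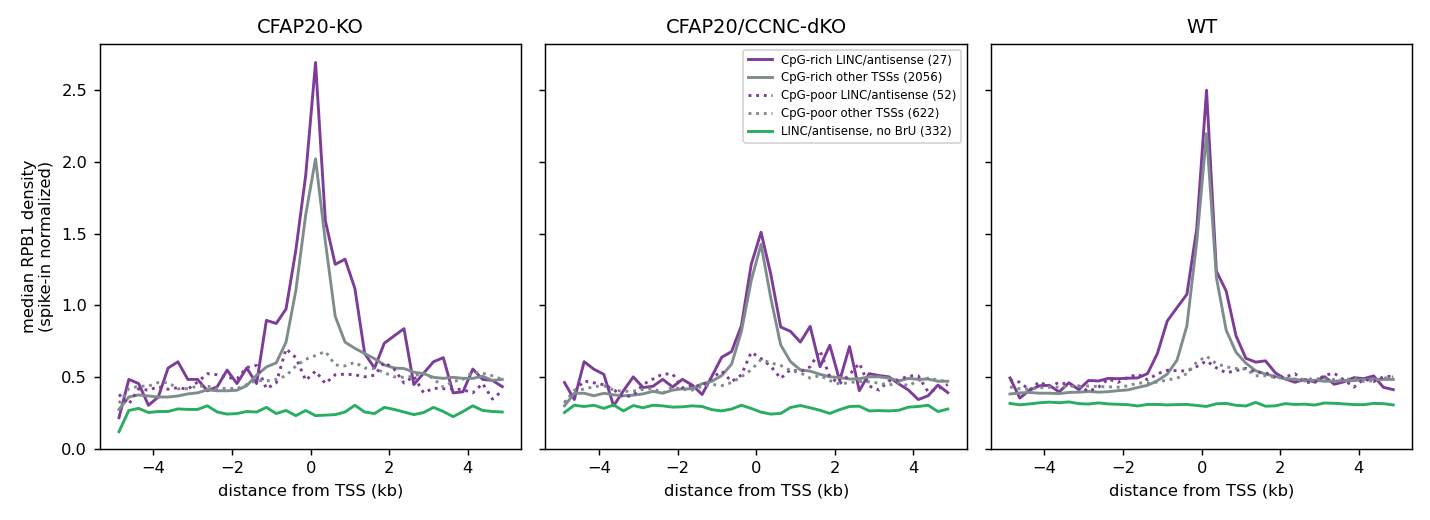
Median RPB1 density in 250-bp bins against distance from the TSS, in the CFAP20-KO, CFAP20/CCNC-dKO and WT libraries, for class 4 LINC and antisense TSSs and class 4 other TSSs by CpG content, and for LINC and antisense TSSs without BrU. The CpG-rich lines peak at the TSS for both kinds, the CpG-poor lines stay low, and the line without BrU is flat.

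Head-to-head antisense promoters had higher median densities than those inside another gene, and the median also differed by CpG content. Positions were taken relative to protein-coding genes only, so noncoding neighbours were not counted. A coding gene on the other strand started within 1000 bp upstream or 500 bp downstream for 40 antisense members (23.5%). These had median densities of 0.827 in CFAP20-KO, 0.669 in CFAP20/CCNC-dKO and 0.691 in WT. The 99 antisense members (58.2%) that started inside a coding gene of the other strand had 0.341, 0.330 and 0.363 in that order. Among the head-to-head ones, 24 CpG-rich starts had 1.39 in CFAP20-KO, 0.816 in CFAP20/CCNC-dKO and 1.27 in WT, and 16 CpG-poor starts had 0.391, 0.402 and 0.448. The WT value for 325 CpG-rich head-to-head other TSSs was 1.42. The 6 CpG-rich antisense starts that lay apart from other coding genes had 1.99 in CFAP20-KO, 1.40 in CFAP20/CCNC-dKO and 1.40 in WT. The 5 CpG-rich ones inside a coding gene had 0.297, 0.208 and 0.262. Of the 18 antisense members at least 2-fold over flank in all 3 libraries, 10 were head to head, 4 inside a gene and 4 apart. Of the LINC members 447 lay apart from other coding genes, with 0.302, 0.336 and 0.340. The deposited list holds no TSS within 2000 bp of another, so for 15 antisense members whose namesake gene is also listed, the starts lie farther apart (median 7444 bp). The strands were opposite in 14 of the 15. Where a namesake had several listed starts the densest was taken, which favours a lower antisense promoter. The antisense promoter was the lower of the pair in 11 in CFAP20-KO, 12 in CFAP20/CCNC-dKO and 10 in WT. Median densities were 0.186, 0.311 and 0.371 at antisense promoters and 0.400, 0.407 and 0.333 at namesake promoters in that order, so the WT medians had the other order. NR2F1-AS1 had 2.57, 1.44 and 1.93 beside 2.72, 1.56 and 2.14 at NR2F1, a nuclear receptor gene, in CFAP20-KO, CFAP20/CCNC-dKO and WT.

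**Figure D4:**
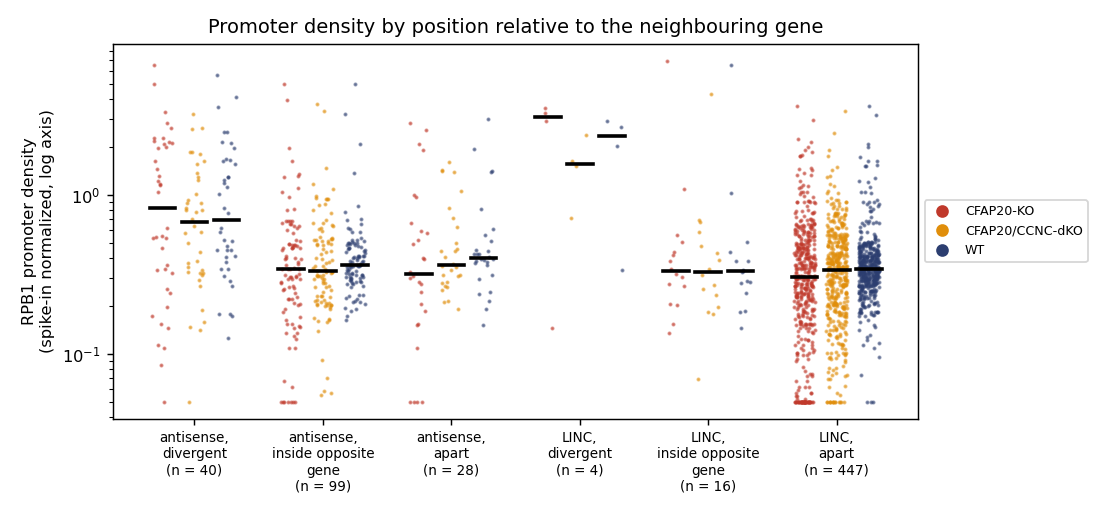
RPB1 promoter density (log axis) of antisense and LINC members by their position relative to an annotated coding gene, in CFAP20-KO, CFAP20/CCNC-dKO and WT. Points are promoters, with values under 0.05 drawn at 0.05, and bars are medians; head-to-head antisense starts have medians of 0.827, 0.669 and 0.691 and internal ones 0.341, 0.330 and 0.363.

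The only replicated measure comes from the 3 WT libraries around replication origins, whose windows held 93 members and 1698 other TSSs. The log2 of promoter (-200 to 600 bp) over flank density had a median of 0.05 ± 0.05 in members and 0.77 ± 0.18 in other TSSs (mean over libraries ± SD, n = 3). The difference was -0.73 ± 0.14, and it was negative in 3 of 3 libraries; the exact two-sided sign-flip permutation test gave p = 0.25, the smallest that 3 libraries allow. In BrU classes 3 and 4 the difference was -1.14 ± 0.19 over 40 members, -0.70 ± 0.21 over the 10 CpG-rich ones and -0.15 ± 0.08 over the 30 CpG-poor ones, each with the same exact p of 0.25. Without BrU it was 0.01 ± 0.13 over 32 members, with an exact p of 0.75. None of these 5 comparisons can pass a threshold of 0.05 with 3 libraries, adjusted or not. At least 2-fold over flank in all 3 WT libraries were 7 of the 93 (33.8% of all TSSs in these windows were): ZNF561-AS1, LINC00467, LINC01569, KANSL1-AS1, LINC00601, WWTR1-AS1 and DLG1-AS1, of which those outside the naming rule are given because the count is small. LINC00467 stood 5.22, 3.23 and 6.56-fold over its flank in WT replicates 1, 2 and 3, and DLG1-AS1 3.06, 2.40 and 2.32-fold.

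Between genotypes, the summed density of members was lower in CFAP20/CCNC-dKO than in the other libraries by less than the sum over other TSSs was. These sums were not matched on BrU, and 332 of 649 members but 3153 of 9138 other TSSs had no BrU. In CFAP20-KO over WT the median log2 ratio of members lay -0.03 from that of other TSSs of like BrU, in CFAP20/CCNC-dKO over WT 0.01 and in CFAP20/CCNC-dKO over CFAP20-KO 0.08. These medians cover unlike BrU classes. In CFAP20/CCNC-dKO over CFAP20-KO the difference was 0.27 in class 4 and 0.17 in class 3, against 0.02 to 0.07 in the other classes. The class 4 value pools opposite directions by CpG content. Its 27 CpG-rich members had a median log2 ratio of -0.76, against -0.48 for CpG-rich other TSSs. Its 52 CpG-poor members had 0.12, against -0.24 for CpG-poor other TSSs. In class 3 these medians were -0.11 against -0.42 for 15 CpG-rich members and -0.19 against -0.14 for 64 CpG-poor ones. The difference in CFAP20/CCNC-dKO over WT lay between -0.11 (class 1) and 0.14 (class 3). In CFAP20-KO over WT it was -0.22 in class 1 and between -0.05 and 0.04 in the others. Ratios to WT also carry the change of antibody. Averaged over the 649 promoters the density was 0.494 in CFAP20-KO, 0.447 in CFAP20/CCNC-dKO and 0.487 in WT. The summed ratio was 1.01 (95% Clopper-Pearson interval 0.982 to 1.05) for CFAP20-KO over WT and 0.917 (0.892 to 0.943) for CFAP20/CCNC-dKO over WT, against 1.04 (1.03 to 1.04) and 0.808 (0.803 to 0.813) for the other TSSs; these intervals cover counting error only. CFAP20/CCNC-dKO over CFAP20-KO, which share an antibody, gave 0.905 (0.869 to 0.942) for members and 0.780 (0.773 to 0.786) for other TSSs. The spike-in per chromatin was 1.48 ng per µg in CFAP20/CCNC-dKO and 1.43 ng per µg in CFAP20-KO and WT, and its part in these ratios was not tested. In class 4, CFAP20/CCNC-dKO over WT was 0.799 (0.758 to 0.842) for members and 0.753 (0.747 to 0.759) for other TSSs, and CFAP20/CCNC-dKO over CFAP20-KO was 0.748 (0.696 to 0.804) and 0.718 (0.711 to 0.726). In class 3 the first ratio was 0.987 (0.917 to 1.06) for members and 0.810 (0.799 to 0.822) for other TSSs, and the second 0.895 and 0.765. Without BrU the first was 0.981 for members and 0.965 for other TSSs, and the second 1.07 and 1.02.

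The 34 promoters at least 2-fold over flank in all 3 libraries, a choice that uses the same densities, are described without a test. Their median density was 2.15 in CFAP20-KO, 1.49 in CFAP20/CCNC-dKO and 2.06 in WT, against 1.99, 1.44 and 1.87 for 1907 other TSSs chosen the same way. CFAP20/CCNC-dKO over WT had a median log2 ratio of -0.41 in the 34 and -0.34 in the others, and CFAP20/CCNC-dKO over CFAP20-KO -0.57 and -0.44. DLG1-AS1 had a ratio of 0.457 (interval 0.337 to 0.607) for CFAP20/CCNC-dKO over WT and 0.400 (0.277 to 0.572) for CFAP20/CCNC-dKO over CFAP20-KO. LINC00941 had 0.655 (0.517 to 0.820) and 0.619 (0.455 to 0.843) for the same ratios. DLGAP1-AS2, at 1.04 (0.788 to 1.35) for CFAP20/CCNC-dKO over WT, and LINC00467, at 1.05 (0.797 to 1.37), had intervals that include 1.

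To count single promoters, those with a mean density of the 3 libraries above the median of all TSSs (0.41) were kept, and a ratio at least 1.5-fold from the median ratio of the 4893 kept TSSs was called. The filter kept 207 members, 131 LINC and 76 antisense, 64 of them only through a knockout library. The median ratio was 1.10 for CFAP20-KO over WT, 0.844 for CFAP20/CCNC-dKO over WT and 0.757 for CFAP20/CCNC-dKO over CFAP20-KO. For CFAP20-KO over WT 46 members were called higher (22.2%, where 15.8% of all TSSs kept were) and 28 lower (13.5%, where 16.7% were). For CFAP20/CCNC-dKO over WT 76 were called higher (36.7%, against 18.9%) and 19 lower (9.18%, against 16.8%); without centring on the median the split was 49 and 35. For CFAP20/CCNC-dKO over CFAP20-KO 68 were called higher (32.9%, against 20.9%) and 31 lower (15.0%, against 17.7%); without centring the split turned to 37 higher and 62 lower, and for CFAP20-KO over WT it was 61 and 24.

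The kept members lay lower in density than the other kept TSSs, with a median of 8.33 fragments in CFAP20-KO, 12.7 in CFAP20/CCNC-dKO and 55.1 in WT, against 14.7, 16.7 and 125 for the others. Other TSSs at like density were called higher in CFAP20/CCNC-dKO over WT in 27.6%, against 36.7% of members, and lower in 15.1%, against 9.18%. For CFAP20-KO over WT they were called higher in 20.7%, against 22.2% of members, and for CFAP20/CCNC-dKO over CFAP20-KO in 27.8%, against 32.9%. In CFAP20/CCNC-dKO over WT, LINC members were called higher in 42.75%, against 29.8% of others at like density, and antisense members in 26.3%, against 23.8%. By BrU, members without it were called higher there in 52.8%, against 49.1% of other TSSs. The same 2 shares were 66.7% and 41.3% in class 1, 36% and 31.9% in class 2, 28.3% and 18.9% in class 3, and 21.5% and 7.82% in class 4. The counting interval of the ratio lay off the median for 40 of the 76 members called higher in CFAP20/CCNC-dKO over WT, which is 19.3% of the members kept where 10.6% of all TSSs kept were such, and for 11 of the 19 called lower (5.31%, where 11.1% were). It did so for 20 of the 46 and 8 of the 28 in CFAP20-KO over WT (9.66% and 3.87%, where 8.13% and 7.77% were) and for 15 of the 68 and 9 of the 31 in CFAP20/CCNC-dKO over CFAP20-KO (7.25% and 4.35%, where 5.89% and 6.44% were). Of the 40 members named first, more lay on chromosome 13 than on any other, among them COL4A2-AS2, GPC5-AS1, LINC00427 and LINC00547. The part of chromosomal position in these calls was not tested, and with 1 library per genotype a regional difference cannot be told apart.

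The 64 members that passed the filter only through a knockout library had to be higher there, so the counts above are a description of the members kept. An alternative chosen after seeing the data kept the limit on the mean and also required a density above 0.41 in WT. Of 209 members above 0.41 in WT it left out those with a lower mean, so members low in a knockout could be lost. It selects on WT in its turn and left 143 members of 4140 TSSs. There, 32 members were called higher in CFAP20/CCNC-dKO over WT (22.4%, where 13.4% of all these TSSs were) and 15 lower (10.5%, where 15.7% were), and the counting interval lay off the median for 17 of the 32 (11.9%, where 8.45% were) and 7 of the 15 (4.90%, where 10.2% were). For CFAP20-KO over WT 26 were called higher (18.2%, where 12.1% were) and 23 lower (16.1%, where 16.4% were), with the interval off the median for 14 of the 26 and 4 of the 23 (9.79% and 2.80%, where 7.71% and 7.15% were). For CFAP20/CCNC-dKO over CFAP20-KO 38 were called higher (26.6%, where 19.4% were) and 21 lower (14.7%, where 17.0% were), with the interval off the median for 11 of the 38 and 6 of the 21 (7.69% and 4.20%, where 5.85% and 6.81% were).

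**Figure D5:**
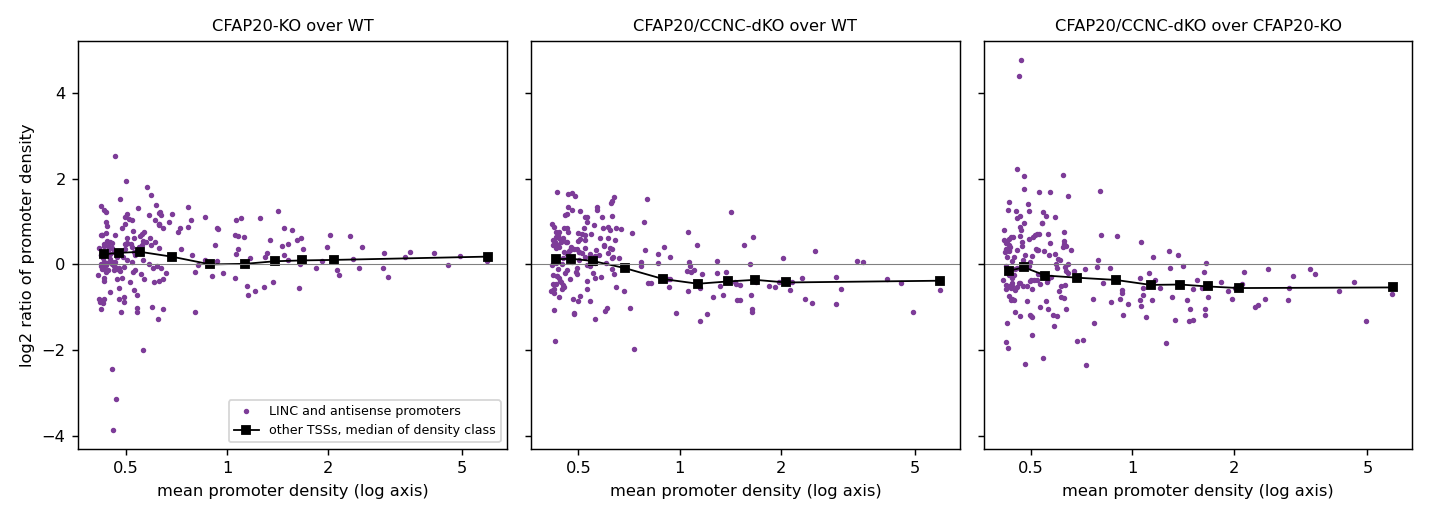
Log2 ratio of promoter density (vertical axis) against the mean promoter density of the 3 libraries (log axis) for the 207 members above the density filter, in the 3 comparisons. The black line joins the medians of other TSSs in 10 density classes; members scatter widely at the low end, and at the high end they lie around the line, which is below 0 in both CFAP20/CCNC-dKO panels.

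The promoters at the ends of each comparison were mostly sparse, and their values follow with that limit. NBDY, listed as LINC01420, encodes a microprotein that binds the mRNA decapping complex; its X-linked promoter had 0.0929 in CFAP20-KO, 0.588 in CFAP20/CCNC-dKO and 0.683 in WT. The CFAP20-KO value, low beside the other two, rests on 1.20 fragments, and the ratio to WT was 0.136 (0.00573 to 0.691). LINC00632, the X-linked host transcript of the circular RNA CDR1as, had 0.232 in CFAP20-KO, 0.407 in CFAP20/CCNC-dKO and 1.04 in WT, with ratios to WT of 0.222 (0.0452 to 0.666) and 0.390 (0.166 to 0.791). Both knockout libraries were low there. C5orf66-AS2 had 0 in CFAP20-KO, 0.819 in CFAP20/CCNC-dKO and 0.558 in WT, and KCNAB1-AS1, inside a potassium channel subunit gene, had 0, 1.08 and 0.320 and passed only through CFAP20/CCNC-dKO. The CFAP20/CCNC-dKO value was 3.53 times a floor of 3 CFAP20-KO fragments, a density of 0.232, at C5orf66-AS2 and 4.64 times it at KCNAB1-AS1. The counting interval of CFAP20/CCNC-dKO over CFAP20-KO began lower, at 2.56 at C5orf66-AS2 and at 3.46 at KCNAB1-AS1.

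LINC01273, whose promoter is printed above, had 1.13 in CFAP20-KO, 0.190 in CFAP20/CCNC-dKO and 0.868 in WT. CFAP20/CCNC-dKO was low, at 3.78 fragments, with ratios of 0.219 (0.0558 to 0.593) to WT and 0.168 (0.0387 to 0.543) to CFAP20-KO. DEPDC1-AS1, head to head with the DEPDC1 gene, had 2.18 in CFAP20-KO, 0.582 in CFAP20/CCNC-dKO and 1.01 in WT, so CFAP20-KO stood above both others, with a ratio of 2.16 (1.38 to 3.29) to WT. STX18-AS1, head to head with a syntaxin gene, had 1.16, 0.638 and 1.65 in that order, and its CFAP20/CCNC-dKO over WT ratio was 0.388 (0.201 to 0.684). LINC01389, CpG-poor, had 0.903 in CFAP20-KO, 0.368 in CFAP20/CCNC-dKO and 0.121 in WT, with a CFAP20-KO over WT ratio of 7.44 (3.10 to 17.6). It passed the density filter only through its CFAP20-KO value. CELF2-AS2, inside the gene of an RNA-binding splicing factor, had 0.477, 0.646 and 0.173 and a CFAP20/CCNC-dKO over WT log2 ratio of 1.69, and it passed only through knockout values. The other 12 members at the ends of the 3 ratios had promoter densities between 0.127 and 1.05 in the 3 libraries.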

How the data were processed

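RPB1 ChIP-seq signal was deposited by the authors as spike-in normalized coverage in 10-bp bins within 5 kb of each TSS (1 library per genotype) and as coverage in 200-bp bins around replication origins (3 WT libraries), compared only by ratios within a library because no source used here states their normalization. The deposited TSS list also holds a BrU score of the WT gene body, whose scale is not given in the sources used here. Builds GRCh38 and BDGP6 stand in the submitters' processing notes, which also name STAR 2.7.7a and HOMER 4.8.2, the aligner BWA 0.7.17, R 4.0.5, SAMtools 1.11 and, for read quality and trimming, Trim Galore 0.6.5 and FastQC 0.11.9. Which tool made which file is not given in the sources used here. No use was made of 2 other per-sample columns.

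From the signal, mean densities were computed per window, and equivalent fragments from the smallest signal step and the median length of isolated runs of that step. Log2 ratios used a pseudocount of 0.04105, which is 10% of the median promoter density. For comparisons with other TSSs, the median of the others in the same BrU class was subtracted from each member's log2 value, and the median over members was taken. Positions of other genes, protein-coding ones only, came from GENCODE 44 and promoter sequences from RefSeq. Counting intervals are 95% Clopper-Pearson intervals, and fragments are not counted by molecular identifiers. Steps were tested on simulated data. The changes simulated at single promoters were larger than 1.5-fold and lay at dense promoters only, so calls near the density limit were not tested in this way. Python 3.11.15, numpy 2.4.6, pandas 2.3.3, scipy 1.17.1 and matplotlib 3.10.9 were used.

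The named genes were members of a list of 39 noncoding RNAs with known roles, those of highest mean density, those at both ends of each ratio and those at both ends of the upstream to downstream ratio. A member on chromosome 8 is not described. The members and lists were chosen with earlier results of these data known.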

Additional observations from a re-analysis of the deposited data

How the results depend on the processing

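Of 97 alternatives to the windows, pseudocount, classes, filters and scale, 86 moved a value by less than the spread between the 3 WT origin libraries (SD 0.14, log2) or a count by less than 1.5 times, and 11 moved it more. The median differences lie near 0, and 9 of their 71 alternatives had the other sign. With BrU and CpG class matched together, the difference was 0.03 for WT density, 0.01 for promoter to body and -0.01 for CFAP20/CCNC-dKO over WT. Against other lncRNA TSSs only, it was 0.05 for WT density, 0.02 for promoter to body, -0.02 for upstream to downstream and -0.06 for CFAP20/CCNC-dKO over WT. The highest 500-bp stretch gave 0.004 for CFAP20-KO over WT, and 10 density classes gave -0.0006 for CFAP20/CCNC-dKO over WT. CFAP20/CCNC-dKO over CFAP20-KO had no alternative of the other sign, its lowest being 0.001, but its split of calls turned without centring, to 37 higher and 62 lower. The log2 difference in WT promoter density between members and other TSSs (-0.05) became -0.22 without matching on BrU, -0.22 above the density filter and -0.20 over members with BrU, the last chosen after seeing the data. The promoter to body difference (-0.06) became -0.27 without matching, and the upstream to downstream difference (0.06) became 0.24 above the density filter. With no density filter the promoters called at 1.5-fold numbered 322, not 74, for CFAP20-KO over WT, 300, not 95, for CFAP20/CCNC-dKO over WT and 370, not 99, for CFAP20/CCNC-dKO over CFAP20-KO. Requiring the density limit in WT too, chosen after seeing the data, gave 49, 47 and 59 for these comparisons. Leaving out each WT library in turn gave differences at origins between -0.77 and -0.65. The cause of these shifts was not tested. No TSS had another listed within 2 kb, so that alternative removed none. No paired analysis was possible because each genotype has 1 library around TSSs. In CFAP20-KO, 33.9% of members lay at or under 3 fragments, so small differences at single promoters were not detectable at this depth.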
